A study of Mus musculus with 59 samples.

Results

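The promoter states of 5 mouse brainstem tumours were followed in which H3K4me3, H3K27me3 and H3K27ac were each profiled by chromatin immunoprecipitation and sequencing. The tumours were BT-2 and BT-6, labelled K27M-Tag, and BT-7, BT-9 and BT-10, labelled WT-Tag. Every merged autosomal H3K4me3 peak of a tumour was put in 1 of 4 states by whether it shared at least 1 bp with an H3K27me3 island and with an H3K27ac peak of the same tumour. A peak with H3K27ac alone is called active, a peak with H3K27me3 alone bivalent, a peak with both triple, and a peak with neither H3K4me3-only. The rule classed 154519 H3K4me3 peaks of the 158965 deposited over all chromosomes, from 15 of the 59 samples of the series.

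The series used a knock-in mouse model of the K27M change in H3f3a, a gene for the replacement histone H3.3. All tumours carried Nestin-creERT2, an inducible Cre recombinase driven by the Nestin promoter of neural precursors, together with LSL-PDGFRαV544ins, a Cre-activated altered PDGF receptor, and Trp53flox/flox, which lets Cre delete the tumour suppressor Trp53. The K27M tumours carried in addition H3f3aLSL-K27M-Tag/+, and the controls H3f3aLSL-WT-Tag/+, the same tagged knock-in without the change, so that the PDGF receptor and Trp53 alleles were common to both genotypes. The labels give no age of the animals. BT-2 and BT-9 were male, and BT-6, BT-7 and BT-10 female. The H3K27me3 and H3K27ac lists of 6 further tumours were used as held-out samples: BT-1, BT-3 and BT-4 (male) and BT-5 (female) with K27M-Tag, and BT-8 and BT-11 (both female) with WT-Tag. H3K27me3 was profiled in 6 hindbrain neurosphere cultures of e15.5 embryos, NSH-F male and the other 5 female, of which NSH-A, NSH-B and NSH-C carried Nestin-cre; H3f3aLSL-K27M-Tag/+, and NSH-D, NSH-E and NSH-F carried Nestin-cre; H3f3aLSL-WT-Tag/+. Their labelled genotype names neither the PDGF receptor transgene nor the Trp53 allele. Tumour pieces are mixtures of cells, and fewer cells with a mark cannot be told apart from less mark per cell.

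H3K4me3 is laid down at the starts of genes by the SET1 and MLL methyltransferases. H3K27ac, written by the acetyltransferases p300 and CBP, marks active promoters and enhancers, and H3K27me3, written by Polycomb repressive complex 2 (PRC2), marks repressed genes. Promoters with H3K4me3 and H3K27me3 are termed bivalent and are known chiefly from genes of development that are silent but not permanently shut. The K27M form of H3.3 is known to inhibit PRC2, and in gliomas with K27M much H3K27me3 is lost while part of it stays at CpG-rich promoters. Acetylation and methylation use the same lysine, so a single histone tail cannot carry both, and a triple peak in bulk tissue can hold them on different tails, nucleosomes, alleles or cells, which these lists do not tell apart.

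The autosomal lists of the 5 tumours held 13251 to 33190 H3K27me3 islands with 5325678 to 14400936 reads inside them, 40070 to 58164 H3K27ac peaks and 27686 to 33413 H3K4me3 peaks. Islands covered 231 Mb in BT-2, 122 Mb in BT-6, 195 Mb in BT-7, 201 Mb in BT-9 and 302 Mb in BT-10. The genotypes overlapped in this length, and BT-10 (WT) had the longest lists of both H3K27me3 and H3K27ac. Total sequencing depth is unknown, so a region outside the lists is one where the authors' callers listed no peak, not one shown to lack the mark. For 30 results, island lists cut to a common number or covered length were among the alternatives. With 2 against 3 tumours no exact permutation test can give a p under 0.1, and within sex none under 0.167. The labels do not say that tumours came from separate animals, so p-values measure only the spread between these samples.

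Active peaks were the most common state in all 5 tumours, and no state's share separated the genotypes. Active peaks made up 50.9% of the H3K4me3 peaks in BT-2, 56.4% in BT-6, 58.7% in BT-7, 53.6% in BT-9 and 58.8% in BT-10. BT-2 was the lowest, but BT-6 lay above the WT tumour BT-9. The K27M mean was 53.6% ± 3.85 (SD, n = 2), and that of WT 57.0% ± 2.98 (SD, n = 3) (two-sided exact permutation test over tumours, p = 0.3). Bivalent peaks made up 15.2% in BT-2, 11.1% in BT-6, 14.1% in BT-7, 16.1% in BT-9 and 13.9% in BT-10 (exact permutation p = 0.5, a mean difference, K27M minus WT, of -1.53 points, and of 0.553 points without BT-6). Triple peaks made up 13.5% in BT-2, 11.4% in BT-6, 7.95% in BT-7, 8.68% in BT-9 and 13.9% in BT-10 (exact permutation p = 0.5). BT-7 and BT-9 had the lowest shares of triple peaks, and BT-10 the highest. H3K4me3-only peaks made up 20.3% in BT-2, 21.2% in BT-6, 19.3% in BT-7, 21.7% in BT-9 and 13.3% in BT-10 (exact permutation p = 0.7). Over the 18 planned comparisons of genotype means, the smallest p adjusted by the Benjamini-Hochberg method was 0.53. Counted by length, 64.6% of the H3K4me3-covered bases of BT-2 and 69.4% of those of BT-6 were active. The same measure gave 73.6% in BT-7, 70.2% in BT-9 and 70.7% in BT-10, so that both K27M tumours lay below the 3 WT tumours, with BT-6 and BT-9 close to each other (exact permutation p = 0.1).

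**Figure D1:**
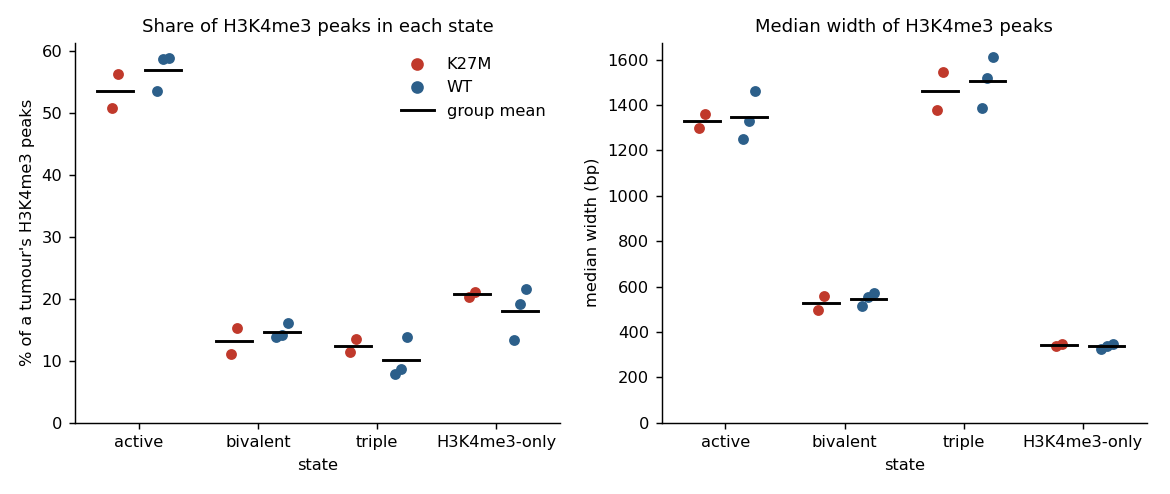
Share of a tumour's H3K4me3 peaks in each state (left, %) and median width of the peaks of each state (right, bp) in 2 K27M (red) and 3 WT tumours (blue). Points are tumours and bars group means; the genotypes overlap in all shares and widths, while bivalent and H3K4me3-only peaks are narrow in every tumour.

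Active and triple peaks were wide and high, bivalent peaks narrow and lower, and H3K4me3-only peaks the narrowest and lowest in every tumour. The median active peak was 1300 bp wide in BT-2, 1359 bp in BT-6, 1328 bp in BT-7, 1460 bp in BT-9 and 1248 bp in BT-10. Triple peaks were wider in each tumour, with medians of 1379, 1545, 1520, 1610 and 1386 bp in the same order of tumours. Bivalent peaks were narrow, at 497, 557, 555, 570 and 513 bp, and H3K4me3-only peaks were the narrowest, at 349, 340, 349, 339 and 324 bp. Genotype did not separate any of these medians (exact permutation p = 0.9 for active, 0.7 for triple, 0.6 for bivalent and 0.5 for H3K4me3-only peaks, on log2 widths), and the sign of the difference turned for active and triple peaks without BT-2 or BT-9 and for bivalent peaks without BT-2. Ranked by the authors' -log10 q within each tumour, the median active peak stood at percentile 61.9 to 68.8 and the median triple peak at 63.9 to 67.0. The median bivalent peak stood at 36.5 to 39.7 and the median H3K4me3-only peak at 20.4 to 24.2. Of the H3K4me3 peaks above percentile 90, 91.9% to 97.2% were active and 2.72% to 7.80% triple. Bivalent peaks were at most 0.217% of them. Nearly all H3K4me3 peaks above percentile 90 thus carried H3K27ac, whether or not they carried H3K27me3.

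The state classes also differed in how regularly they recurred. Peaks of the 5 tumours merged into 40273 intervals, of which 10433 (25.9%) were found in 1 tumour and 19448 (48.3%) in all 5, which are called common intervals below. Intervals of a single tumour were narrow, with a median of 263 bp, and 44.9% of their calls were H3K4me3-only. Common intervals had a median width of 1768 bp, and 65.7% of their calls were active. Of the triple peaks, 83.8% in BT-2, 90.4% in BT-6, 90.7% in BT-7, 94.7% in BT-9 and 86.1% in BT-10 lay in common intervals. For bivalent peaks the shares were lower in every tumour, at 49.0%, 60.9%, 56.8%, 78.9% and 55.8%. For H3K4me3-only peaks they were 24.7%, 30.7%, 30.9%, 51.8% and 25.3%. BT-9, which had the shortest H3K4me3 list, had the highest share in common intervals for all 4 states.

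H3K27ac and H3K27me3 avoided each other on H3K4me3 peaks in every tumour, and less so in both K27M tumours than in any of the 3 WT tumours. The measure was the log2 odds ratio of the marks over a tumour's H3K4me3 peaks, which is 0 where they are placed independently and negative where they avoid each other. It was -1.50 in BT-2 and -1.37 in BT-6, against -2.44 in BT-7, -2.20 in BT-9 and -2.14 in BT-10. The groups did not overlap, and the difference of 0.82 on the log2 scale gave the smallest p this design allows (two-sided exact permutation, p = 0.1). Within sex the order was the same: BT-2 lay above BT-9 among males, and BT-6 above BT-7 and BT-10 among females. The number of triple peaks was 0.729 of that for independent marks in BT-2 and 0.748 in BT-6. It was 0.541 in BT-7, 0.563 in BT-9 and 0.688 in BT-10 (exact permutation p = 0.2).

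The order of the genotypes was the same in narrow and in wide peaks. In peaks of 200 to under 500 bp the log2 odds ratio was -1.43 in BT-2 and -1.48 in BT-6, against -3.03 in BT-7, -2.65 in BT-9 and -2.26 in BT-10. In peaks of 500 to under 1000 bp it was -1.91 and -2.07 in the K27M tumours, against -3.09, -3.05 and -2.93 in the WT tumours. In peaks of 2000 to under 4000 bp it was -4.75 and -3.90, against -6.53, -5.43 and -6.99. In all 5 width classes both K27M tumours lay above all 3 WT tumours (exact permutation p = 0.1 in the 2 narrowest classes and 0.2 in the other 3). The nearest tumours lay closer at 1000 to under 2000 bp, with -3.85 and -3.69 against -4.55, -4.10 and -4.46. They lay closest at 4000 bp or more, with -3.12 and -3.53 against -4.90, -4.64 and -3.68. In these ratios 0.5 was added to each count of peaks. No peak of 4000 bp or more was H3K4me3-only, so the ratio there exists only through that addition. The -6.99 of BT-10 rests on very few H3K4me3-only peaks, 0.0178% of 5605.

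The same measure was then taken in all 11 tumours over the 19448 common H3K4me3 intervals, where the 6 held-out tumours contributed their own H3K27me3 and H3K27ac. In the K27M tumours it was -2.54 in BT-1, -2.57 in BT-2, -2.26 in BT-3, -2.21 in BT-4, -2.35 in BT-5 and -2.33 in BT-6. In the WT tumours it was -3.24 in BT-7, -3.52 in BT-8, -2.97 in BT-9, -3.19 in BT-10 and -2.29 in BT-11. All WT tumours but BT-11 lay below every K27M tumour, while BT-11 lay among them. The means were -2.38 ± 0.147 (SD, n = 6) and -3.04 ± 0.465 (SD, n = 5), a difference of 0.67 (two-sided exact permutation, p = 0.013, and 0.04 with genotype permuted within sex). This measure was chosen after the data were seen: adjusted over the 10 added measures in 11 tumours its p was 0.0433, and over all 14 measures in 11 tumours 0.0606. The 6 held-out tumours alone gave a difference of 0.56 (exact permutation p = 0.2, where 0.067 is the smallest possible). The shares behind it overlapped between the genotypes in 11 tumours. H3K27me3 was found at 27.8% ± 6.58 of common intervals (SD, n = 6) against 23.6% ± 5.15 (SD, n = 5; exact permutation p = 0.284, but 0.00649 and 0.00866 with lists cut to the same number of islands and to the same covered length). H3K27ac was found at 78.8% ± 4.10 against 77.6% ± 4.72 (exact permutation p = 0.656). Common intervals with H3K27me3 and no H3K27ac are called bivalent here also in tumours without an H3K4me3 list. They made up 11.7% ± 2.251 against 12.3% ± 2.39 (exact permutation p = 0.613), and the order of these means turned without BT-9. BT-11 had the smallest number of island reads, 1878972, and after it BT-5 (K27M), with 2346983.

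**Figure D2:**
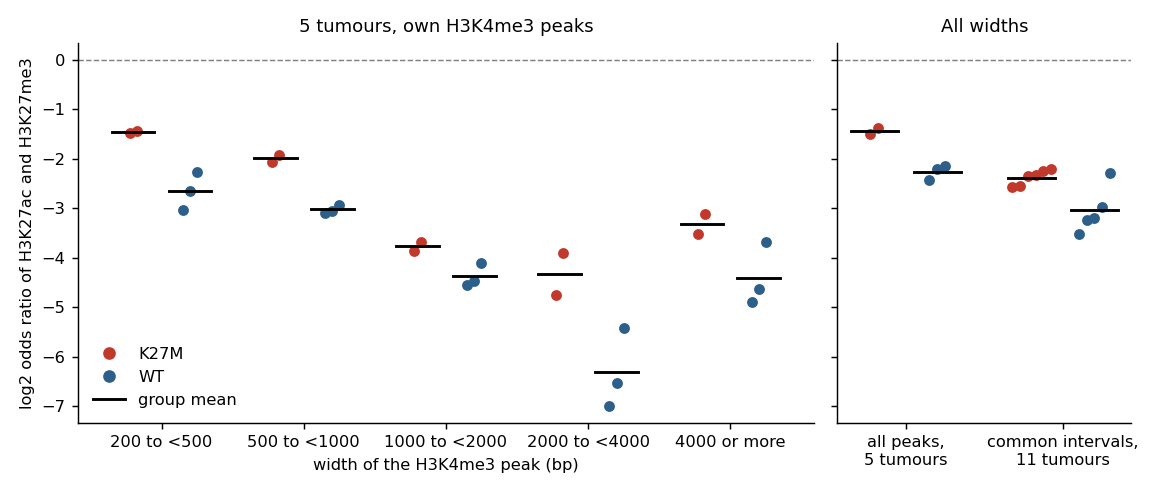
Log2 odds ratio of H3K27ac and H3K27me3 by width of the H3K4me3 peak (left, 5 tumours) and over all widths (right, 5 tumours and 11 tumours); 0 (dashed) is independent placement. Points are tumours and bars group means; K27M (red) lies above WT (blue) in each width class, and in 11 tumours 1 WT point, BT-11 at -2.29, lies among the K27M points. On the left 0.5 was added to each count of peaks.

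In percentage points, the difference in the share of triple peaks was largest in the widest H3K4me3 peaks. Of the peaks of 4000 bp or more, 36.4% were triple in BT-2 (664 peaks) and 30.1% in BT-6 (687 peaks). The share was 14.3% in BT-7 (666 peaks), 16.6% in BT-9 (561 peaks) and 19.0% in BT-10 (886 peaks). Both K27M tumours lay above all WT tumours, and nearly all other peaks of this width were active, at 63.3% and 69.6% in K27M and 85.4%, 83.1% and 80.9% in WT (exact permutation p = 0.1 for either share). Bivalent peaks were at most 0.357% of peaks this wide, and none was H3K4me3-only. In contrast, in peaks of 1000 to under 2000 bp triple peaks made up 18.5% in BT-2, 15.9% in BT-6, 13.5% in BT-7, 14.1% in BT-9 and 21.8% in BT-10, and the groups overlapped (exact permutation p = 1).

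In 11 tumours, 1355 common intervals were 4000 bp wide or more. Both marks were found at 36.5% of them in BT-1, 31.9% in BT-2, 41.0% in BT-3, 22.2% in BT-4, 22.4% in BT-5 and 27.1% in BT-6. The WT tumours had 16.4% in BT-7, 10.5% in BT-8, 21.1% in BT-9, 21.6% in BT-10 and 14.5% in BT-11. Every K27M tumour lay above every WT tumour, with BT-4 and BT-10 close to each other. With each mark covering at least 50% of the interval the groups overlapped, at 11.5% in BT-4 and 9.59% in BT-5 against 13.2% in BT-10. With H3K4me3 peaks within 500 bp joined they overlapped too, at 21.7%, 21.3% and 22.1%. The means as first given were 30.2% ± 7.67 (SD, n = 6) and 16.8% ± 4.66 (SD, n = 5) (two-sided exact permutation, p = 0.0108, and 0.0133 within sex). Adjusted over the 10 added measures its p was 0.0433, and over all 14 measures in 11 tumours 0.0606. In the 4 narrower width classes the groups overlapped (exact permutation p = 0.0541 to 0.333). The difference in points was smaller there, but in the narrowest class the means, 5.40% in K27M and 1.72% in WT, stood further apart as a ratio. In the held-out tumours alone the 4 K27M values lay above both WT values (exact permutation p = 0.133).

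**Figure D3:**
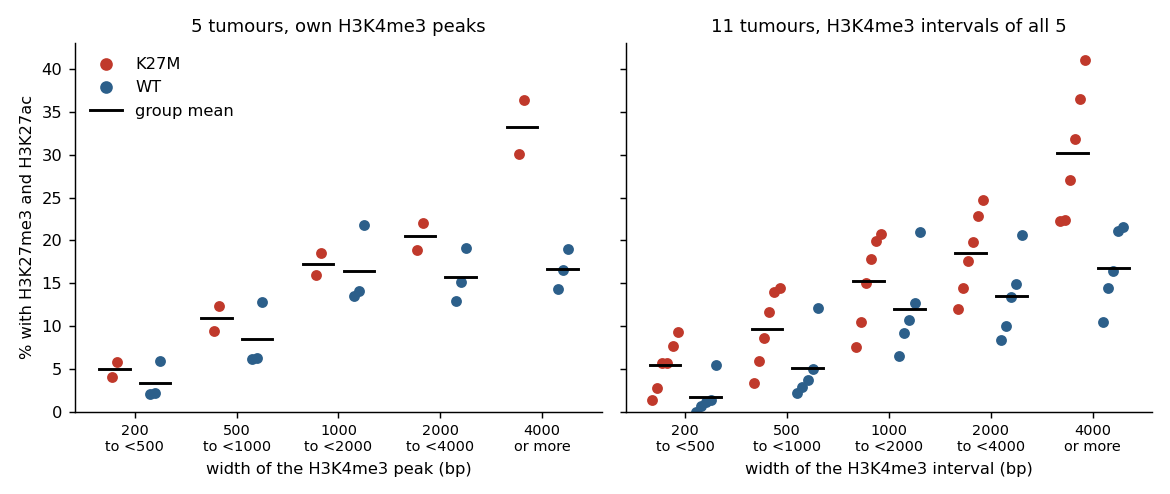
Share with H3K27me3 and H3K27ac (%), by width, of a tumour's own H3K4me3 peaks in 5 tumours (left) and of common H3K4me3 intervals in 11 tumours (right). Points are tumours and bars group means; at 4000 bp or more all 6 K27M points (22.2% to 41.0%) lie above all 5 WT points (10.5% to 21.6%).

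Most triple peaks lay wholly inside an H3K27me3 island. The median triple peak had 100% of its bases under H3K27me3 in every tumour. In a peak wholly inside an island, any H3K27ac within the peak shares its bases with H3K27me3. Of the bases of the median triple peak, H3K27ac covered 63.5% to 69.2% in K27M and 52.4% to 67.9% in WT. The parts of island width and of H3K27ac cover in the bases shared by both marks were not tested. The median triple peak had 65.1% of its bases under both marks in BT-2 and 59.4% in BT-6, against 47.2% in BT-7, 46.1% in BT-9 and 55.9% in BT-10 (exact permutation p = 0.2). Islands took in the whole peak more often in both K27M tumours: 84.0% of the triple peaks of BT-2 and 82.6% of those of BT-6 lay wholly inside an island, against 66.8% in BT-7, 70.3% in BT-9 and 71.9% in BT-10. The groups did not overlap (exact permutation p = 0.1). For bivalent peaks the shares were 96.2% and 96.0% in K27M and 93.1%, 94.7% and 95.3% in WT (exact permutation p = 0.2). In the held-out tumours, measured over the 845 intervals that were triple in all 5 tumours, 85.6% in BT-1, 76.8% in BT-3, 72.4% in BT-4 and 56.1% in BT-5 lay wholly inside an island. The share was 36.0% in BT-8 and 31.7% in BT-11, below all 4 K27M tumours (exact permutation p = 0.067, the smallest possible). Unlike the triple peaks above, these intervals include some without any island in a held-out tumour. An island was found at 86.5% to 99.1% of them in K27M and at 62.4% and 70.3% in WT. The part of missing islands in the difference was not tested. Over the 1090 intervals bivalent in all 5 tumours the same share was 85.9% to 96.2% in the held-out K27M tumours and 88.5% and 83.0% in the WT tumours, and the groups overlapped (exact permutation p = 0.267). A test of the difference between triple and bivalent intervals was not run.

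A larger part of the H3K27me3 islands lay at H3K4me3 peaks in both K27M tumours. Of all islands, 26.1% held an H3K4me3 peak in BT-2 and 36.1% in BT-6, against 18.9% in BT-7, 23.6% in BT-9 and 19.0% in BT-10. Of all reads in islands, 51.3% were in such islands in BT-2 and 64.6% in BT-6, against 37.6% in BT-7, 44.0% in BT-9 and 41.3% in BT-10. The groups overlapped in neither measure (exact permutation p = 0.1 for each). The share of islands at an H3K4me3 interval of any of the 5 tumours was 23.0% to 42.1% in held-out K27M and 20.3% and 26.98% in held-out WT, and these groups overlapped (exact permutation p = 0.2). Over 11 tumours it was 33.5% ± 7.68 (SD, n = 6) against 25.3% ± 4.36 (SD, n = 5), also overlapping (exact permutation p = 0.0758, adjusted over the 10 added measures 0.146 and over all 14 measures 0.205). In the held-out tumours the share of island reads at an H3K4me3 interval of any of the 5 tumours was 60.9% in BT-1, 54.3% in BT-3, 66.7% in BT-4 and 71.3% in BT-5, against 43.4% in BT-8 and 47.7% in BT-11. The groups did not overlap in this share (exact permutation p = 0.067). Over 11 tumours the K27M mean was 63.8% ± 7.60 (SD, n = 6), and that of WT 47.5% ± 4.98 (SD, n = 5) (exact permutation p = 0.00866, within sex 0.0267, adjusted over the 10 added measures 0.0433 and over all 14 measures 0.0606). BT-9 (WT), at 55.5%, lay above BT-3 (K27M), at 54.3%.

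Islands with bivalent peaks only were denser in reads than islands with triple peaks only, and both were denser than islands without H3K4me3. Ranked by reads per kb within a tumour, islands with bivalent peaks only had a median percentile of 78.9 in BT-2 and 79.6 in BT-6, and of 81.6, 82.3 and 82.8 in the WT tumours. Islands with triple peaks only had median percentiles of 73.4 and 69.5 in K27M and 66.3, 63.3 and 71.1 in WT. Islands without an H3K4me3 peak had medians of 36.4 to 44.6. The order of bivalent only, triple only and no H3K4me3 peak held in all 5 tumours. Islands with both kinds of peak had medians of 86.9 in BT-2, 81.5 in BT-6, 83.9 in BT-7, 79.9 in BT-9 and 88.9 in BT-10. They stood above islands with bivalent peaks only in every tumour but BT-9.

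Of the 19448 common intervals, 12250 (63.0%) had the same state in all 5 tumours. Active intervals were the most frequent among them, at 10003, followed by 1090 bivalent, 845 triple and 312 H3K4me3-only intervals. The intervals triple in all 5 were the widest, with a median of 2568 bp, against 2118 bp for active, 1022 bp for bivalent and 657 bp for H3K4me3-only ones. Among the other 7198 intervals H3K27me3 alone varied at 3146, H3K27ac alone at 2760 and both at 1292. Single tumours made up part of this variation: H3K27ac was missing in BT-9 alone at 1050 intervals, and H3K27me3 was present in BT-10 alone at 561 and in BT-2 alone at 417. BT-9 also had the shortest H3K27ac list, and BT-10 and BT-2 the longest covered lengths of islands; the part of list length in these counts was not tested.

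A state that was uniform within each genotype and different between them was found at 551 common intervals, 2.83% of the 19448. The most frequent change by count, from active in all 3 WT tumours to triple in both K27M tumours, was found at 262 intervals (1.35%). Active was also the most common state, so more intervals could leave it than any other. Shares per starting state were not compared. The opposite change, from triple in WT to active in K27M, was found at 66 (0.339%). Bivalent in WT and H3K4me3-only in K27M was found at 65 intervals, and the opposite direction at 4. H3K4me3-only in WT and active in K27M was found at 48, and the opposite direction at 33. Bivalent in WT and triple in K27M was found at 43, and the opposite direction at 22. Each direction asks for a mark in 2 tumours and its absence in 3, or the reverse, so the counts of opposite directions cannot be set against each other. Complete exchanges between bivalent and active were nearly absent: 3 intervals were bivalent in WT and active in K27M, and 1 was active in WT and bivalent in K27M. With 2 against 3 tumours no single interval can be tested.

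**Figure D4:**
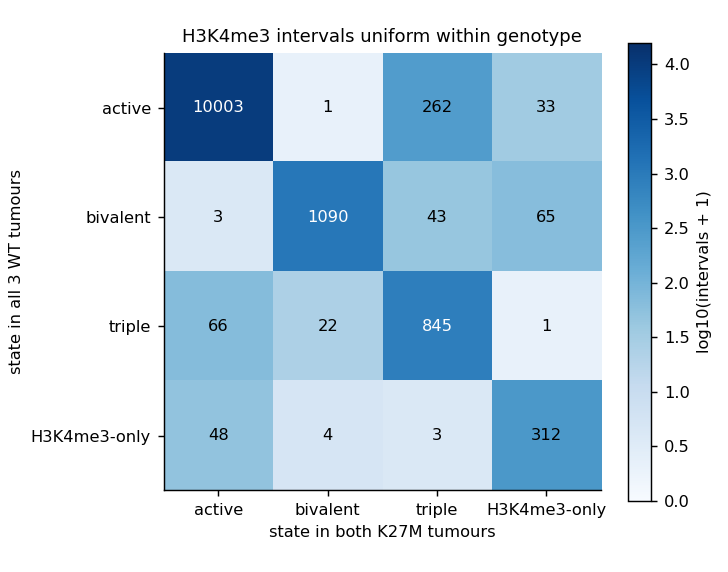
Number of common H3K4me3 intervals by their state in all 3 WT tumours (rows) and in both K27M tumours (columns), for intervals uniform within each genotype; the colour is log10(intervals + 1). The diagonal holds the 12250 constant intervals. The fullest cell off it is WT active and K27M triple, with 262, in the row with the most intervals.

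An H3K27me3 island in both K27M tumours and in no WT tumour was found at 321 common intervals, 1.65% of all, called K27M-only intervals below. The opposite pattern, WT-only, was found at 213 intervals (1.1%). K27M-only asks for an island in 2 tumours and none in 3, and WT-only the reverse, so these counts cannot be set against each other. The K27M-only intervals were spread over all 19 autosomes in 286 groups more than 50 kb apart, of which 256 held a single interval. With the island lists of the 5 tumours cut to the same number or to the same covered length, the counts were 514 and 649 K27M-only and 126 and 130 WT-only intervals. Leaving out 1 tumour loosens the condition, and a common interval then needs a peak only in the tumours left. These counts are thus over another total than the 321 and 213, which is not given here. Without BT-6, BT-9 or BT-10 there were 768, 507 and 545 K27M-only intervals. Without BT-2, BT-7 or BT-9 there were 524, 423 and 406 WT-only intervals. The 321 were wide, with a median of 2069 bp, and 262 of them (81.6%) carried H3K27ac in all 5 tumours, against 68.8% of all common intervals. The WT-only intervals were narrower, with a median of 1129 bp, and 66 of them (31.0%) carried H3K27ac in all 5 tumours, while 65 (30.5%) carried it in none. Islands over the K27M-only intervals were 6 kb wide at the median and stood at density percentile 63.9. Those over the WT-only intervals were similar, at 7 kb and percentile 70.3. Both sets were chosen to lack an island in some tumours. The 3157 intervals with H3K27me3 in all 5 tumours had 12.2 kb and percentile 89.4.

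The held-out tumours had no part in choosing these intervals, and their genotypes stood apart at the K27M-only but overlapped at the WT-only intervals. An island was found at 83.2% of the K27M-only intervals in BT-1, 87.9% in BT-3, 49.8% in BT-4 and 47.0% in BT-5, against 6.54% in BT-8 and 8.41% in BT-11. All 4 K27M tumours lay far above both WT tumours, a difference of 59.5 percentage points (two-sided exact permutation, p = 0.067, the smallest possible with 4 against 2). With the island lists of all 11 tumours cut to the same number, the K27M-only intervals were chosen anew. The shares at these were 66.8% to 81.1% in K27M, 6.41% in BT-8 and 20.9% in BT-11. With lists cut to the same covered length, and intervals again chosen anew, they were 68.6% to 87.2% in K27M, 14.3% in BT-8 and 47.8% in BT-11. The groups stayed apart, with BT-11 nearer to K27M. Both cuts followed the shortest list, that of the held-out tumour BT-5, so held-out lists had a part in choosing the intervals of the cut lists. With the uncut lists, the shares over all common intervals were 32.4%, 37.6%, 23.0% and 19.9% in the K27M and 19.6% and 17.8% in the WT tumours. The K27M-only intervals therefore lay 26.9 to 50.7 percentage points above the tumour's own background in held-out K27M and 9.4 and 13.0 points below it in held-out WT. Both held-out WT tumours were female, so sex was matched only by BT-5, whose 47.0% lay above both (within sex, exact permutation p = 0.333). BT-11 and BT-5, the 2 lists with the fewest reads, stood at 8.41% and 47.0%. The part of read number in the difference was not tested. At the WT-only intervals an island was found at 50.2% in BT-1, 67.6% in BT-3, 21.1% in BT-4 and 7.04% in BT-5, against 53.1% in BT-8 and 22.5% in BT-11. The groups overlapped (exact permutation p = 0.8, with a difference of -1.29 percentage points that changed sign when BT-2, BT-4, BT-5, BT-6, BT-7 or BT-8 was left out).

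**Figure D5:**
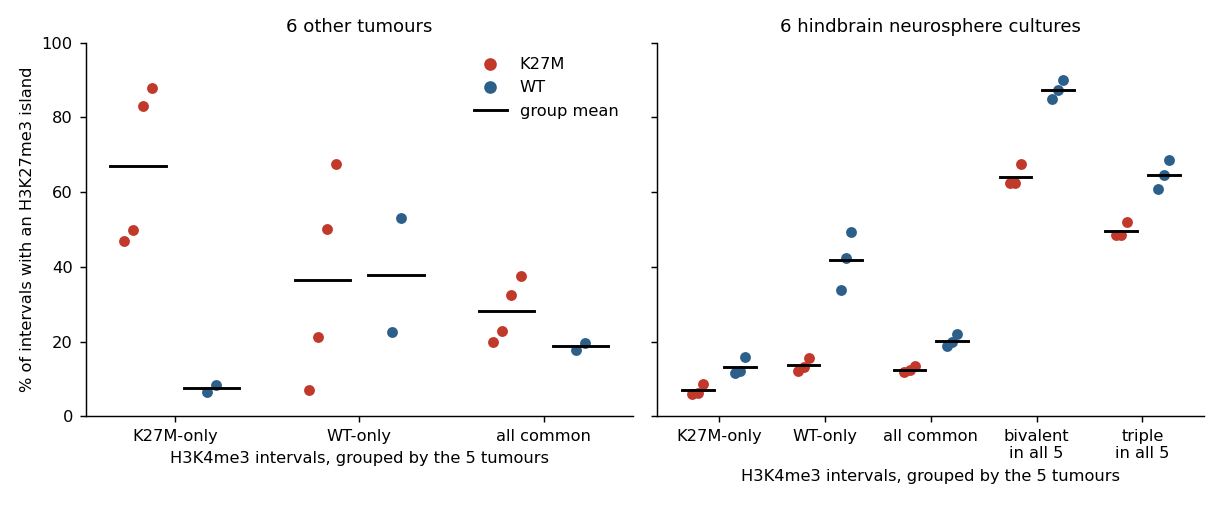
Share of H3K4me3 intervals with an H3K27me3 island (%) in the 6 held-out tumours (left) and the 6 hindbrain neurosphere cultures (right), for intervals grouped by the 5 tumours. Points are samples and bars group means. Held-out K27M tumours (red) stand at 47.0% to 87.9% at K27M-only intervals and WT tumours (blue) at 6.54% and 8.41%. In cultures K27M lies below WT in every set with the uncut lists, of which those of K27M cultures are the shorter.

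The intervals with the most H3K27me3 reads show what these patterns looked like. Positions are in build mm9, and no gene annotation of that build was at hand, so what lies there is not stated. The K27M-only interval with the most island reads, chr7:138703761-138705054, lay in a 55.2 kb island with 10049 reads in BT-2 and a 33.4 kb island with 17440 reads in BT-6. It was active in all 3 WT tumours, where its H3K27ac peak stood at percentile 94.9 to 97.6 of the list, as it did in K27M at 95.7 and 97.3. Only 1 of the 4 held-out K27M tumours, and no held-out WT tumour, had an island there. The second, chr4:99239319-99240251, lay in an island of 163 kb with 23892 reads in BT-2 and of 5.00 kb with 238 reads in BT-6. It was H3K4me3-only in all 3 WT tumours, and 3 of 4 held-out K27M tumours and no held-out WT tumour had an island there. The third, chr2:31525784-31527080, lay in islands of 48.0 kb in BT-2 and 51.6 kb in BT-6. An island of 51.2 kb with 8751 reads in BT-10 touched the merged interval but not the H3K4me3 peak of BT-10 itself, which was active.

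Of the WT-only intervals, chr12:33860572-33861448 had the most island reads, with 302 in a 13.4 kb island in BT-7, 12000 in a 197 kb island in BT-9 and 25742 in a 227 kb island in BT-10. It was H3K4me3-only in both K27M tumours, and 1 of 4 held-out K27M tumours and no held-out WT tumour had an island there. At chr2:31427409-31429613 the WT islands of 58.0, 124 and 182 kb held 2292, 7346 and 19205 reads, and H3K27ac was present in all 5 tumours at percentile 87.8 to 97.3. In the third, chr13:22117733-22118975, the islands were 49.4 to 53.4 kb wide in WT, and H3K27ac was weak where present, at percentile 7.36 in BT-2, 28.4 in BT-6 and 14.6 in BT-10. At the first of these intervals BT-7 thus had a far smaller island than BT-9 and BT-10.

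H3K27ac in both K27M tumours and in no WT tumour was found at 140 common intervals (0.72%), and the opposite at 75 (0.386%). The conditions differ as for H3K27me3, so the 140 and 75 cannot be set against each other. Leaving out BT-2, BT-6, BT-7 or BT-10 gave 426, 255, 248 and 494 intervals with H3K27ac in K27M only. Leaving out BT-2, BT-6, BT-7 or BT-9 gave 250, 198, 115 and 240 with it in WT only. These counts are again over another total of common intervals. Where each mark had to cover at least 50% of the H3K4me3 peak, 145 had H3K27ac in WT only. Of the 140, 43 (30.7%) carried H3K27me3 in all 5 tumours and 48 (34.3%) in none, against 16.2% and 60.9% of all common intervals. Among held-out tumours H3K27ac was found at 71.4% of these 140 intervals in BT-1, 52.9% in BT-3, 45.7% in BT-4 and 36.4% in BT-5, against 30.0% in BT-8 and 19.3% in BT-11. The 4 K27M tumours lay above both WT tumours, by 26.96 percentage points at the mean (exact permutation p = 0.133). With the intervals chosen anew at -log10 q of at least 5 the groups overlapped. There BT-5 had 30.4% and BT-8 35.7%, with a difference of 20.2 points (exact permutation p = 0.2). The groups also overlapped with the intervals chosen anew where each mark covered at least 50% of the peak. There BT-4 had 19.7% and BT-8 21.3%, with a difference of 13.1 points (exact permutation p = 0.4). Over all common intervals the shares were 74.3% to 82.8% in held-out K27M and 74.7% and 75.1% in held-out WT. At the 75 WT-only H3K27ac intervals the shares were 68.0%, 22.7%, 14.7% and 12% in K27M and 44.0% and 34.7% in WT, and the groups overlapped (exact permutation p = 0.733).

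The 3 K27M-only H3K27ac intervals with the highest H3K27ac rank were all bivalent in the 3 WT tumours and triple in both K27M tumours. At chr10:45204894-45206964 the H3K27ac peak stood at percentile 80.7 in BT-2 and 75.3 in BT-6, inside islands of 24.0 and 31.6 kb. The WT islands there were 42.2 to 54.6 kb wide. At chr2:79293657-79297519 H3K4me3 was also wider in K27M, at 3743 bp in BT-2 and 3801 bp in BT-6 against 1744, 1311 and 1586 bp in WT. At chr2:115684753-115686945 it was 2149 and 2182 bp in K27M against 1678, 850 and 1886 bp. All 6 held-out tumours had an island at each of the 3. H3K27ac at the last was found in all 4 held-out K27M tumours and in neither WT tumour, but at the second in only 1 held-out tumour, of K27M. The reverse cases, with H3K27ac in WT only, included chr4:136445898-136446729 and chr9:45076367-45077452, which were bivalent in both K27M tumours and triple in all 3 WT tumours. At chr17:57418580-57419864, the first by rank, the K27M tumours were bivalent and H3K4me3-only, and BT-9 was active beside 2 triple WT tumours.

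Exchanges between bivalent and active could be read off singly. The interval chr8:87225308-87227045 was active in WT and bivalent in K27M. In BT-2 an H3K27ac peak at percentile 11.8 touched the merged interval outside the tumour's own H3K4me3 peak. The intervals chr11:103220086-103221055, chr5:23893136-23894420 and chr7:38121553-38123460 were bivalent in WT, in islands of 7 to 12.8 kb, and active in K27M. In the held-out tumours 4 of 4 K27M and both WT tumours had an island at chr5:23893136-23894420, so that the pattern of the 5 tumours did not extend to them there. At chr11:103220086-103221055 an island was found in 2 of 4 held-out K27M tumours and both WT tumours, at chr7:38121553-38123460 in 1 K27M and no WT tumour, and at chr8:87225308-87227045 in 1 K27M and 1 WT tumour.

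H3K4me3 itself was present in both K27M tumours and in no WT tumour at 735 of the 40273 merged intervals (1.83%), and the reverse held at 206 (0.512%). The 735 had a median width of 430 bp and 48.8% of their calls were H3K4me3-only. The 206 had a median width of 623 bp, and 37.2% of their calls were active and 29.4% bivalent. Requiring absence from 3 tumours is a different condition from requiring absence from 2, so these counts cannot be set against each other.

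Over all 11 tumours, Fisher's exact test per common interval called none of 2085 testable intervals for H3K27me3 after Benjamini-Hochberg adjustment (0 called, 0%; smallest adjusted p = 0.0674). At an unadjusted p under 0.05 it called 333 (16%), of which 291 had islands more often in K27M and 42 more often in WT. Of the 291, 88.3% carried H3K27ac in all 5 tumours, against 23.8% of the 42 and 68.8% of all common intervals. Islands were listed in all 6 K27M tumours but no WT tumour at 61 intervals (0.314%), and at 6 intervals (0.0309%) the reverse held. These counts include the 5 tumours already described. With the island lists of all 11 tumours cut to the same number, 155 of 1819 intervals were called after adjustment, 151 of them with more islands in K27M. With lists cut to the same covered length, 120 of 1671 were called, 119 of them with more islands in K27M. For H3K27ac Fisher's exact test called none of 2007 intervals after adjustment (0%; smallest adjusted p = 0.366), and 83 (4.14%) were at an unadjusted p under 0.05, 61 of them more often in K27M. H3K27ac in all 6 K27M and no WT tumour was found at 7 intervals (0.036%), and the opposite at 0.

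Pairs of tumours shared their state at most common intervals, whether of 1 genotype or of both. The same state was found at 85.1% of common intervals in the pair BT-2 and BT-6, the highest of the 10 pairs, and at 76.7% in BT-9 and BT-10, the lowest. Pairs of the same genotype shared on average 81.5% and pairs of different genotype 79.5% (one-sided exact permutation over genotype, p = 0.2). For H3K27me3 alone the means were 90.2% and 87.9% (p = 0.1, the smallest possible, exact permutation), and for H3K27ac 89.8% and 89.9% (p = 0.6, exact permutation). The 4 pairs with the lowest shares of equal states included BT-9 in 3 cases, and BT-9 lacked H3K27ac most often.

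The constant intervals give a picture of each state at its widest. The widest interval active in all 5 tumours, chr15:85499465-85513168, had 12797 to 13704 bp of H3K4me3 in each tumour, and its H3K27ac peaks stood above percentile 99.2 in all of them. The widest bivalent one, chr3:93247441-93252017, had 4156 to 4524 bp of H3K4me3 and islands of 22.0 to 30.2 kb, and all 6 held-out tumours had an island there. The widest H3K4me3-only one, chr7:65916061-65918111, had from 224 bp (BT-9) to 1244 bp (BT-10) of H3K4me3, and none of the 6 held-out tumours had either mark there. The widest triple interval was wider than all of these, at 24193 bp.

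At the 3 widest triple intervals the islands were far larger in both K27M tumours than in any WT tumour, while H3K4me3 differed by less. At chr13:83857506-83881698 H3K4me3 covered 23462 bp in BT-2, 23566 bp in BT-6, 21874 bp in BT-7, 21933 bp in BT-9 and 24087 bp in BT-10. The islands there were 37.4 and 39.0 kb wide with 2070 and 3344 reads in K27M, and 13.4, 10.6 and 10.2 kb with 274, 287 and 330 reads in WT. At chr3:88008773-88026315, with 16302 to 16995 bp of H3K4me3 in the 5 tumours, they were 62.0 and 58.2 kb in K27M and 23.6, 18.0 and 11 kb in WT. At chr6:52106247-52119612 H3K4me3 covered 12774 and 12345 bp in K27M and 10783, 10742 and 12283 bp in WT. The islands there were 189 kb with 47937 reads in BT-2 and 207 kb with 95750 reads in BT-6, against 10.4 kb with 194 reads in BT-7, 10.8 kb with 230 reads in BT-9 and 12.8 kb with 486 reads in BT-10. In all 3 the H3K27ac peaks stood above percentile 96.3 in every tumour. All 4 held-out K27M tumours had an island at each of the 3, and 1, 1 and 2 of the 2 held-out WT tumours had one. Over all 845 intervals triple in all 5 tumours the groups overlapped: the strongest island had a median width of 12.6 kb in BT-2, 11 kb in BT-6, 7.40 kb in BT-7, 8.80 kb in BT-9 and 11.6 kb in BT-10 (exact permutation p = 0.3). Among held-out tumours the same median was 11.6, 10.2, 11.4 and 6.80 kb in K27M and 6.60 and 4.80 kb in WT (exact permutation p = 0.067).

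The hindbrain cultures showed how the same intervals were marked in neurospheres whose labelled genotype names neither the PDGF receptor transgene nor the Trp53 allele. Their island lists differed by genotype, at 37.3 to 45.6 Mb in K27M and 145 to 191 Mb in WT. Of the 1090 intervals bivalent in all 5 tumours, 67.5%, 62.4% and 62.4% had an island in NSH-A, NSH-B and NSH-C, against 84.9%, 87.2% and 90.1% in NSH-D, NSH-E and NSH-F. All K27M cultures lay below all WT cultures (two-sided exact permutation p = 0.1, the smallest possible with 3 against 3). The cultures share experiment numbers, and with genotype swapped within these p was 0.25 (exact permutation, the smallest possible). With lists cut to the same covered length, the bivalent intervals were chosen anew from the cut tumour lists. At these the order was opposite, with K27M 17.2 percentage points above WT (exact permutation p = 0.1). At the 845 intervals triple in all 5 tumours the shares were 52.0%, 48.4% and 48.6% in K27M and 60.8%, 64.6% and 68.6% in WT. At the 321 K27M-only intervals they were 8.72%, 5.92% and 6.23% in K27M and 11.5%, 12.1% and 15.9% in WT, below the 11.9% to 13.4% and 18.8% to 22.0% over all common intervals. At the 213 WT-only intervals they were 15.49%, 12.2% and 13.1% in K27M and 33.8%, 42.3% and 49.3% in WT. Islands in cultures were thus frequent at intervals bivalent or triple in all tumours and infrequent at those where an island was found in K27M tumours only. Active intervals had islands in 0.590% to 0.770% of cases in K27M cultures and in 1.79% to 2.47% in WT cultures.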

How the data were processed

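Snap-frozen brainstem tumours and cultured neurospheres were profiled by chromatin immunoprecipitation and sequencing, with chromatin of Drosophila S2 cells added per the labels' protocols; no scale factor from it was used here, so values are not absolute amounts. Hindbrain cultures came from e15.5 embryos. Build mm9 and the tools SICER 1.1, MACS2, bedtools 2.25.0, BWA 0.7.12, R 2.14.0, SAMtools and Picard are listed, without roles, per the submitters' processing notes. The authors' deposited H3K27me3 lists have the layout of SICER islands (window 200 bp, gap 600 bp, FDR 1e-05 per the file names), and their value is the count of reads in an island. The authors' deposited H3K4me3 and H3K27ac lists have the narrowPeak layout, 1 list per sample, and hold for each peak its score, its fold enrichment as a ratio, and its p and q as -log10 values, the latter at least 2; the -log10 q ranked peaks within a list.

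Sex chromosomes were left out, overlapping peaks merged, and intervals made by merging the peaks of 5 tumours; a tumour's state on an interval came from its own peaks, and marks of held-out tumours and cultures from any overlap with the interval. Genotype means were compared by two-sided exact permutation tests over samples: the smallest p is 0.1 for 2 against 3 or 3 against 3, 0.0667 for 4 against 2 and 0.00216 for 6 against 5. In all, 136 measures were tested, 122 of them in too few samples to pass 0.05; adjustment was over the 18 planned comparisons, and over the 10 added or all 14 measures in 11 tumours. Members and lists were chosen with earlier results of these data known. Regions named are the first 3 per mark and direction by island reads or H3K27ac rank, all exchanges between bivalent and active, and the 3 widest of each constant state. No annotation of build mm9 was given, so gene lists and markers, those of the tissue included, were not applied. Computation ran on SciPy 1.17.1, pandas 2.3.3, numpy 2.4.6 and matplotlib 3.10.9 under Python 3.11.15 and was tested on simulated data. Input samples and forebrain cultures were not analysed here.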

Additional observations from a re-analysis of the deposited data

Results flagged for a closer look

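Of 32 groups of 4 to 10 tumours checked for a tumour standing apart from the rest of its genotype, 3 had one, where chance flags about 1 in 20. BT-3, a K27M tumour with the most islands of the 11, had H3K27me3 without H3K27ac at 16.0% of common intervals, and the next K27M tumour at 11.4%. BT-3 has no H3K4me3 list, so its own H3K4me3 at these intervals is not known. BT-10, the WT tumour with the longest island and H3K27ac lists, had both marks at 5.44% of common intervals of 200 to under 500 bp, where the next WT tumour had 1.36%. BT-10 also had both marks at 12.1% of common intervals of 500 to under 1000 bp, where the next WT tumour had 4.92%.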

How the results depend on the processing

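Over 30 results, 180 of 204 alternatives kept the direction, the side of the threshold and, for counts, a value within 1.5 times. Part of this count was fixed in advance. Permuting within sex leaves every difference as it was. Island cuts do not touch results on H3K27ac alone, and the 50% rule does not touch shares of island reads. Results in 5 or 6 samples cannot cross 0.05. Interval sets were chosen anew wherever lists, overlap or tumours changed. With lists cut to the same covered length of strongest islands, the genotype difference (K27M minus WT) was 0.0109 points for the bivalent share, -0.00241 on the log2 scale for the width of H3K4me3-only peaks, 0.637 points for the bivalent share in 11 tumours and 17.2 points for cultures at bivalent intervals, each opposite to the reported sign. The H3K27me3 share in 11 tumours was then 5.26 points higher in K27M (exact permutation p = 0.00866), 649 intervals were K27M-only and 130 WT-only, and 120 of 1671 differed by Fisher's exact test. With the same number of islands the values were 0.0720 points for the bivalent share in 11 tumours (opposite sign), 5.05 points for the H3K27me3 share (exact permutation p = 0.00649), 514 K27M-only and 126 WT-only intervals, and 155 of 1819 by Fisher's exact test. With -log10 q of at least 5, log2 width differences turned to 0.0102 (active) and 0.0109 (triple). With the same number of top peaks they turned to 0.0294 (active), 0.0585 (bivalent) and 0.0104 (triple), and with peaks within 500 bp joined to 0.0177 (bivalent) and 0.0311 (triple). With each mark covering at least 50% of the peak, the H3K4me3-only width difference was -0.000805, the 11-tumour H3K27ac and bivalent differences -1.28 and 0.937 points, all opposite, and 145 intervals had H3K27ac in WT only. In all these the cause was not tested.

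Leaving out 1 tumour at a time gave -3.61 to 0.553 points for the bivalent share, -0.0671 to 0.0461, -0.134 to 0.0302 and -0.124 to 0.0403 for the log2 widths of active, bivalent and triple peaks, and -1.51 to 0.243 points for the bivalent share in 11 tumours. It gave 359 to 768 and 282 to 524 intervals with H3K27me3 in K27M only and in WT only, 205 to 494 and 109 to 250 for H3K27ac, and -16.5 to 14.0 points for held-out H3K27me3 at WT-only intervals. The total of common intervals behind these counts changed with the tumour left out. The 3 measures in 11 tumours that had an unadjusted p under 0.05 kept it, before adjustment, under all 7 alternatives and with each tumour left out. Over the 7 the differences were 0.61 to 1.43 for the log2 odds ratio, 11.2 to 14.0 points for both marks at 4000 bp or more and 13.1 to 16.5 points for island reads. No paired analysis was possible because the K27M and WT tumours share no number. For the hindbrain cultures, which share experiment numbers, the replicate block gave the same difference of -23.3 points, negative in all 3 pairs (exact permutation p = 0.25, the smallest possible). Total depth is unknown, and list lengths limit every statement on absence.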

Other observations

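Intervals bivalent in all 5 tumours mostly stood alone. The 1090 formed 922 groups more than 50 kb apart. The group with the most members, chr13:23361557-23405968 (mm9), held 5 bivalent intervals, which were all the common H3K4me3 intervals inside it, and chr1:74928533-74998596 held 4 of 4. These were chosen after their values were seen. In the held-out tumours an island was found at 90.6% to 98.9% of the 1090 intervals in K27M and at 92.3% and 92.2% in WT, and H3K27ac at 0.917% to 7.61% and at 3.39% and 7.89%.

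At the 845 intervals triple in all 5 tumours, an island was found in 98.6% of cases in BT-1, 99.1% in BT-3, 89.0% in BT-4 and 86.5% in BT-5, against 62.4% in BT-8 and 70.3% in BT-11. H3K27ac was found there in 94.2%, 85.1%, 90.9% and 88.2% of cases in K27M and 85.4% and 94.0% in WT. The groups overlapped for H3K27ac and not for H3K27me3, and no test was run on these values.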
